A study of Mus musculus with 2 samples.

Results

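The genes described here are 10 members of the matrix metalloproteinase system in cultured mouse macrophages: 7 matrix metalloproteinases (Mmp2, Mmp8, Mmp9, Mmp12, Mmp13, Mmp14 and Mmp19) and 3 tissue inhibitors of metalloproteinases (Timp1, Timp2 and Timp3). They were chosen by name, as the rows of the deposited expression table that carry these symbols. All 10 were found among the 16463 genes of the table. The cells were unstimulated bone marrow-derived macrophages, grown for 5 days from marrow of mice labelled C57BL/6J in medium conditioned by L929 cells, a fibroblast line that supplies macrophage colony-stimulating factor. The library called WT came from mice carrying Lyz2-Cre, in which the lysozyme M gene drives Cre recombinase in cells of the myeloid lineage. The library called TKO came from mice that carried the same Lyz2-Cre and a floxed mir-17~92 cluster (flox/flox), and that were also labelled as lacking mir-106a~363 (-/-) and mir-106b~25 (-/-). Cells in which Lyz2 is not active would keep the floxed cluster, and the labels give neither the age nor the number of mice. Each genotype had 1 library, so every difference below compares 2 libraries, has no replicate check and carries an interval for counting error only.

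Matrix metalloproteinases are zinc-dependent enzymes, most of them secreted as inactive proenzymes, that cut collagens, elastin, proteoglycans and many other proteins outside the cell. Tissue inhibitors of metalloproteinases bind their active sites and block them. Macrophages use these enzymes to move through and remodel tissue, and Mmp12, macrophage elastase, is named for this cell type. Transcript levels say nothing of how much enzyme is activated or inhibited.

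The libraries held 10877897 (WT) and 10656431 (TKO) estimated reads after rounding to whole counts. Of the macrophage markers, 9 were looked up, and all were above 0 in both libraries, with a summed level of 3741 FPKM in WT and 3962 FPKM in TKO. Being above 0 does not test the macrophage label. The fibroblast, osteoclast and dendritic cell lists below also held no gene at 0, at lower summed levels. FPKM is fragments scaled to transcript length and sequencing depth, a level that can be compared between genes of different length. None of the 9 passed the size rule defined below. Mir17hg, which hosts mir-17~92, was counted 8 times in the WT library and 42 times in TKO. By the size rule it was 5.49-fold higher in TKO (95% interval 2.55 to 13.5), although the label names the cluster as floxed; this whole-gene value does not check the floxed deletion. Lyz2, which drives the Cre, had 373 and 397 counts.

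Timp2 was the most abundant of the 10 transcripts, at 154.31 FPKM in WT and 128.25 in TKO, and Mmp12 was second at 61.66 and 66.67. A middle group followed in WT with Timp1 at 19.51, Mmp8 at 15.53, Mmp19 at 15.38 and Timp3 at 10.34 FPKM. Mmp14 at 6.10, Mmp13 at 4.08, Mmp2 at 1.87 and Mmp9 at 1.49 FPKM were the lowest. Neighbours in this order had overlapping 95% counting intervals for Timp1 and Mmp8, for Mmp8 and Mmp19, and for Mmp2 and Mmp9. All other neighbours in WT lay apart. In TKO the order began with the same pair, and Mmp8 (11.94), Timp1 (11.52) and Mmp19 (11.34) could not be ordered within their intervals. Timp3 moved from sixth to eighth place, at 3.07 FPKM, where its interval overlapped that of Mmp14 (3.55), which in turn overlapped that of Mmp13 (4.68). Mmp2 at 1.03 and Mmp9 at 0.56 FPKM were again the lowest, with overlapping intervals. Against all 11525 genes with at least 20 counts in 1 library, Timp2 exceeded 96.4% and Mmp12 89.5% in WT, whereas Mmp2 exceeded 12.6% and Mmp9 9.89%.

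**Figure D1:**
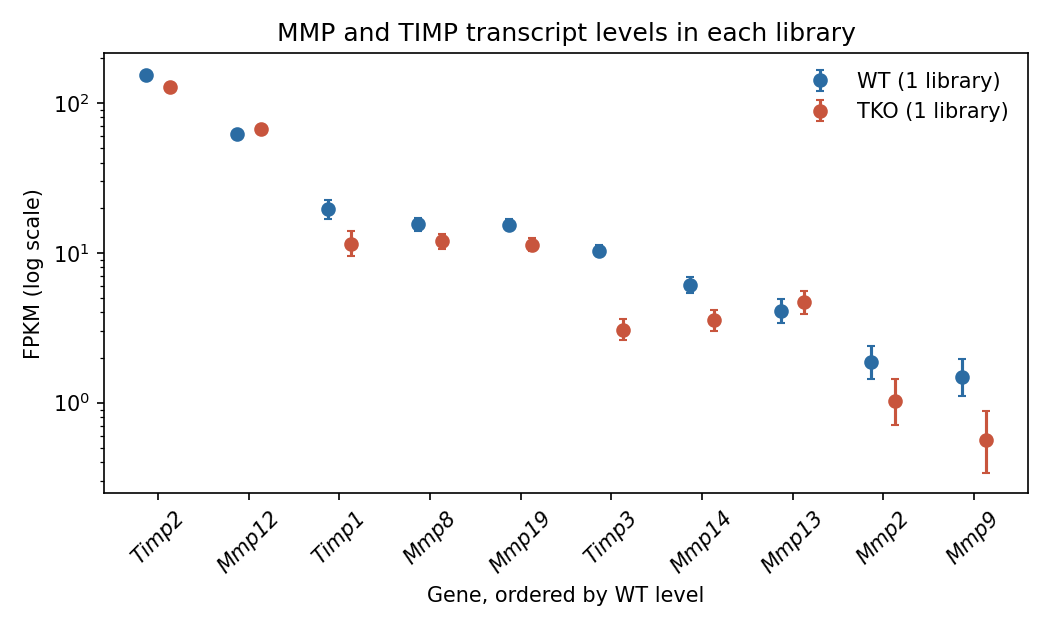
Transcript level of each gene in FPKM on a log axis, with 1 point per library (WT blue, TKO red) and 95% exact Poisson intervals for counting error. Timp2 and Mmp12 lie above the other 8 genes in both libraries, and the widest gap between the libraries is at Timp3 (10.34 and 3.07 FPKM).

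The comparison between the genotypes used the log2 ratio of TMM-scaled counts, TKO over WT, in which values below 0 are lower in TKO. A gene was called by a size rule, not a test: at least 2-fold, a 95% counting interval that excludes no change, and at least 20 counts in 1 library. All 10 genes had the 20 counts. By this rule 2 of the 10 were lower in TKO, Timp3 and Mmp9, against 2.30% of the 11525 genes, and 0 were higher, against 2.43%. At 1.5-fold with the same interval, 5 of the 10 were lower (Timp3, Mmp9, Mmp2, Mmp14 and Timp1), against 5.52% of all genes. With no size threshold, the interval lay below 0 for 8 of the 10, against 22.7%, and above 0 for 1, Mmp12, against 21.8%. The median log2 ratio of the 10 was -0.57, and that of all genes was 0.0043. These genes were chosen with earlier results of the same libraries known, so the counts describe them and are no independent evidence of a direction.

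**Figure D2:**
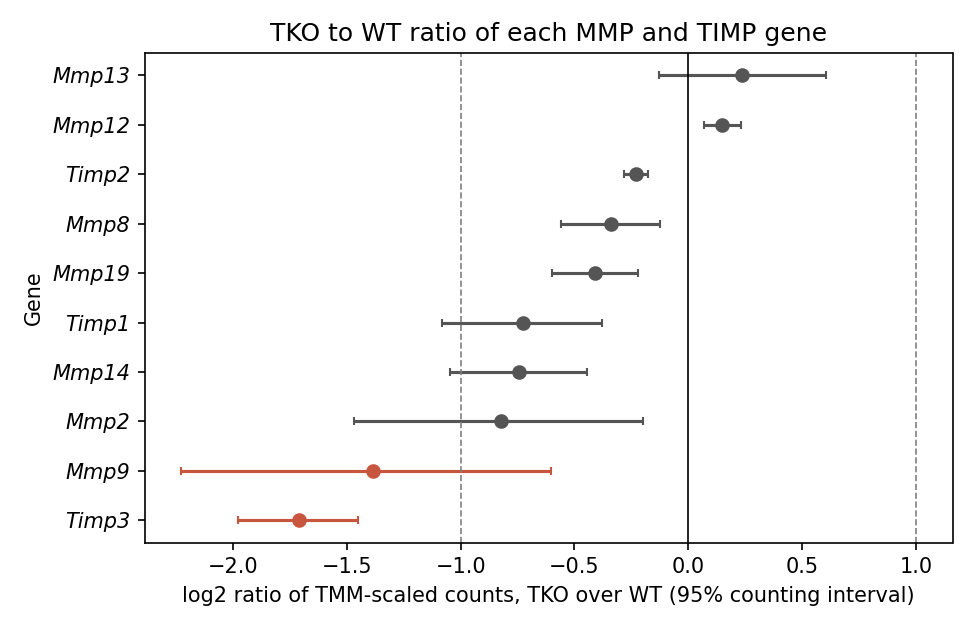
Log2 ratio of TMM-scaled counts, TKO over WT, for each gene with its 95% counting interval; dashed lines mark 2-fold and red marks genes past the size rule. Timp3 (-1.71) and Mmp9 (-1.39) lie beyond the 2-fold line, and Mmp12 and Mmp13 are the genes above 0.

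Of the 3 inhibitors, Timp3 passed the size rule as lower in TKO, and Timp1 and Timp2 did not. Timp3 (Entrez 21859, GRCm38 chromosome 10, 86300372 to 86349506, plus strand) encodes the inhibitor that binds to the extracellular matrix and that also blocks ADAM-type sheddases. WT held 531 counts of it and TKO 155, a level 3.27-fold lower in TKO (95% interval 2.73 to 3.94). This log2 ratio of -1.71 was the lowest of the 10, and 0.538% of all genes had a lower one. Timp1 (Entrez 21857, chromosome X, 20870166 to 20874735, plus strand), a secreted inhibitor induced by many growth factors and cytokines, was at 187 (WT) and 108 (TKO) counts. Its log2 ratio was -0.73 (-1.08 to -0.38), which did not reach 2-fold. Timp2 (Entrez 21858, chromosome 11, 118301069 to 118355740, minus strand) encodes the inhibitor that, with Mmp14, also takes part in activating the Mmp2 proenzyme. Its counts were 6141 in WT against 5006 in TKO, with a log2 ratio of -0.23 (-0.28 to -0.18). The 3 intervals differ in position: that of Timp2 overlaps neither of the others, and that of Timp1 does not reach that of Timp3.

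Neighbouring transcripts bear on how firmly these counts can be assigned, because no source used here states the strand setting of the counting. Timp3 lies within Syn3, a synapsin gene on the opposite strand, and their exons overlap. Syn3 counts were 19 (WT) and 22 (TKO), with a log2 ratio of 0.28 (-0.68 to 1.24). Timp1 lies within Syn1, also on the opposite strand and without overlap of exons, which had 147 and 142 counts. Timp2 overlaps Cep295nl on the same strand, without overlap of exons, and that gene has no row in the table. The interval of Syn3 is wide at these counts and overlaps no part of that of Timp3.

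The microRNAs labelled as deleted or floxed in TKO pair with messenger RNAs through their seed, bases 2 to 8 from the 5′ end, so the longest 3′ UTR annotated for a gene was searched for the matching 7-base sites. One mature microRNA of each of the 4 seed families encoded by the clusters is shown from RefSeq (GRCm38.p6), with the seed in capitals; the letters are needed to read the sites that follow.
miR-17-5p (chr14:115043684-115043706, plus strand): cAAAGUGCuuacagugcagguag
miR-18a-5p (chr14:115043867-115043889, plus strand): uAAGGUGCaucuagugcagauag
miR-19b-3p (chr14:115044358-115044380, plus strand): uGUGCAAAuccaugcaaaacuga
miR-92a-3p (chr14:115044476-115044496, plus strand): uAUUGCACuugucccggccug
The seed of miR-17-5p is shared by 6 mature microRNAs of the 3 clusters, that of miR-92a-3p by 3, and those of miR-18a-5p and miR-19b-3p by 2 each.

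Of the 10 genes, Timp2 and Mmp14 held a site for any of the 4 families, whereas 34.2% of 10769 genes did that had the count minimum and a 3′ UTR matched by symbol. Timp2, with a 3′ UTR of 2630 bases, held 1 site for miR-17 and 2 for miR-19, and Mmp14, with 1328 bases, held 1 for miR-19. In Timp2 the miR-17 site and a miR-19 site share 4 bases. The windows below are shown because these are the sites found; capitals mark the site or, in the first, the joined pair.
Timp2, miR-19 and miR-17 (chr11:118301832-118301856, minus strand): tagcattagacTTTGCACTTTtaaa
Timp2, miR-19 (chr11:118302765-118302786, minus strand): gcactccctctTTTGCACaaac
Mmp14, miR-19 (chr14:54445025-54445046, plus strand): aggacagccagTTTGCACcctt
Timp3 has the longest 3′ UTR of the 10, 3604 bases, longer than in 89.1% of genes, and none of the 4 sequences was in it. Timp2 and Mmp14 had log2 ratios of -0.23 and -0.74, and neither passed the size rule. A match is a description of letters, and mature microRNAs were not measured.

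Among the enzymes, the gelatinases were the least abundant, and 1 of them, Mmp9, passed the size rule as lower in TKO. Mmp9 (Entrez 17395, chromosome 2, 164940780 to 164955850, plus strand), gelatinase B, which cuts denatured collagen and basement membrane collagen, was covered by 52 WT and 19 TKO counts. It was 2.62-fold lower in TKO (1.52 to 4.68), an interval that reaches below 2-fold. Mmp2 (Entrez 17390, chromosome 8, 92827291 to 92853420, plus strand), gelatinase A, was covered by 63 and 34, with a log2 ratio of -0.82 (-1.47 to -0.20), not past the size rule. Their intervals overlap widely, so the gelatinases cannot be ranked by their ratio at this depth.

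Mmp14 (Entrez 17387, chromosome 14, 54431612 to 54445364, plus strand) encodes the membrane-anchored collagenase that activates the Mmp2 proenzyme at the cell surface. Its counts were 254 (WT) and 145 (TKO), with a log2 ratio of -0.74 (-1.05 to -0.44). None of the 3 transcripts of this activation complex, Mmp14, Timp2 and Mmp2, passed the size rule. The interval of Timp2 (-0.28 to -0.18) lay above that of Mmp14 and reached into that of Mmp2. Mmp19 (Entrez 58223, chromosome 10, 128790910 to 128800824, plus strand), a secreted enzyme that cuts basement membrane proteins, was at 560 (WT) and 403 (TKO) counts, with a log2 ratio of -0.41 (-0.60 to -0.22). Its exons overlap those of Tmem198b on the opposite strand, which stood at 297 and 205 counts with a log2 ratio of -0.47 (-0.73 to -0.21). They also overlap those of Gm47093, an antisense gene with no row in the table. Reads of these genes cannot be told apart where the strand setting is not given.

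Mmp8, Mmp12 and Mmp13 lie in a cluster of metalloproteinase genes on chromosome 9, and none of them passed the size rule. Mmp12 (Entrez 17381, 7344381 to 7369499, plus strand), which degrades elastin, was at 2435 (WT) and 2582 (TKO) counts, with a log2 ratio of 0.15 (0.070 to 0.23). Mmp13 (Entrez 17386, 7272514 to 7283331, plus strand), a collagenase that cuts fibrillar collagen, was at 119 and 134, with a log2 ratio of 0.24 (-0.13 to 0.61). Mmp8 (Entrez 17394, 7558456 to 7568485, plus strand), the collagenase known from neutrophil granules, was at 415 and 313, with a log2 ratio of -0.34 (-0.56 to -0.13). The interval of Mmp8 did not overlap that of Mmp12. Of 7 genes of the cluster in the table, between 7272514 and 7699585, Mmp27 also had the count minimum, with 78 and 60 counts and a log2 ratio of -0.31 (-0.82 to 0.19). The 4 cluster genes therefore spanned -0.34 to 0.24. The other members among the enzymes, Mmp2, Mmp9, Mmp14 and Mmp19, spanned -1.39 to -0.41, while Mmp24 on chromosome 2 stood at 0.30 (-0.031 to 0.64). In the annotation Mmp12 overlaps Mmp1b on the opposite strand, which has no row in the table, so the assignment of reads at this locus is uncertain.

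Promoters were examined for the AP-1 motif, since AP-1 factors are classical regulators of this family. RefSeq promoters (GRCm38.p6, 250 bases before to 50 after a start site) were given for 7 of the 10 genes, in 8 entries; those of Mmp2, Mmp9 and Mmp19 were not used here. The motif TGAGTCA, or TGACTCA on the other strand, was in 2 of the 8 entries, against 5.20% of all 32851 promoters and 3.66% of those of genes with the count minimum. They belong to Mmp12 and Mmp13, and each is shown with the motif in capitals and up to the base before the start site.
Mmp12 (chr9:7347290-7347373, plus strand): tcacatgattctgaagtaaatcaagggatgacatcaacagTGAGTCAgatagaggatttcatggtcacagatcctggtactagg
Mmp13 (chr9:7272439-7272513, plus strand): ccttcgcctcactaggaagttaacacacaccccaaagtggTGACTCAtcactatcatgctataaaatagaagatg
The motif began 44 bases before the second of the Mmp12 start sites, at 7347374, and 35 bases before that of Mmp13. The first Mmp12 start site, at 7344397, had none in its window. These are letters in a window, and binding of a factor was not measured.

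The balance of the family rested on 1 gene of each kind. Mmp12 made up 58.1% of the summed FPKM of the 7 enzymes in WT and 66.8% in TKO. Mmp8 made up 14.6% and 12.0%, and Mmp19 14.5% and 11.4%. Timp2 made up 83.8% of the summed FPKM of the inhibitors in WT and 89.8% in TKO, while Timp3 made up 5.61% and 2.15%. Summed levels were 106.11 FPKM in WT and 99.77 in TKO for the enzymes, and 184.16 and 142.84 for the inhibitors. The inhibitor sum was 1.74 times the enzyme sum in WT and 1.43 times in TKO. In summed counts, the 7 enzymes had a log2 ratio of -0.037 (-0.10 to 0.028), an interval that includes no change. The other 6 enzymes without Mmp12 had -0.42 (-0.53 to -0.30) and the 3 inhibitors -0.31 (-0.37 to -0.26). These ratios of summed transcripts are not ratios of inhibitor to active enzyme.

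**Figure D3:**
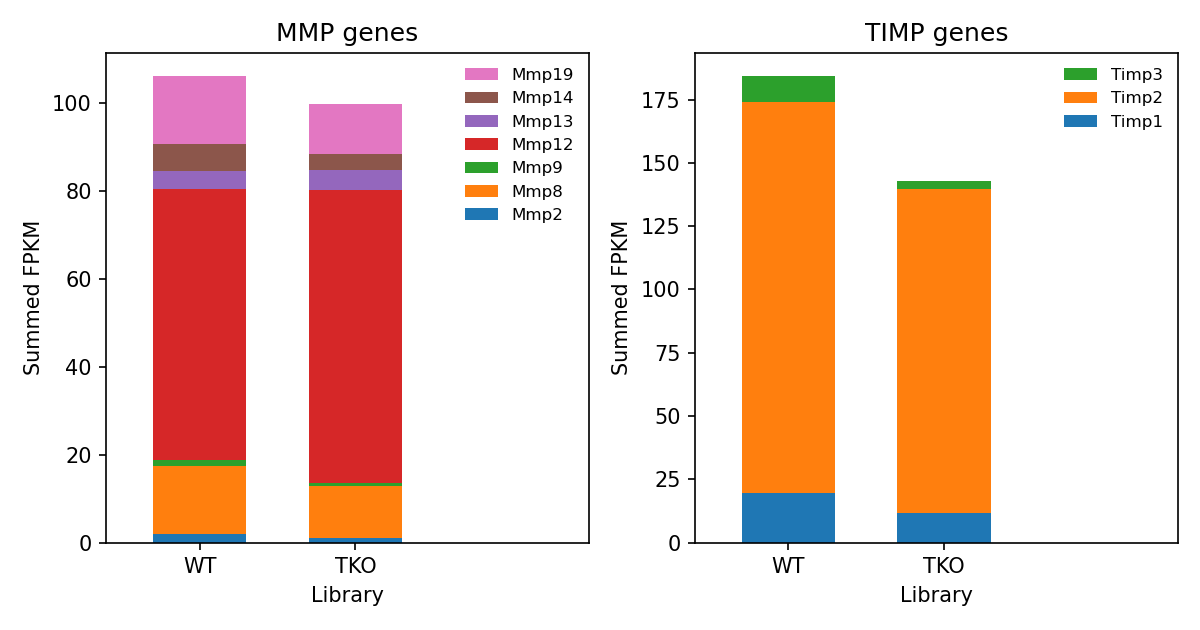
Summed FPKM of the 7 enzymes (left) and the 3 inhibitors (right) in each library, with 1 stacked segment per gene and no error bars. Mmp12 fills 58.1% of the enzyme bar in WT and 66.8% in TKO, and the inhibitor bar is shorter in TKO (142.84 against 184.16 FPKM).

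**Figure D4:**
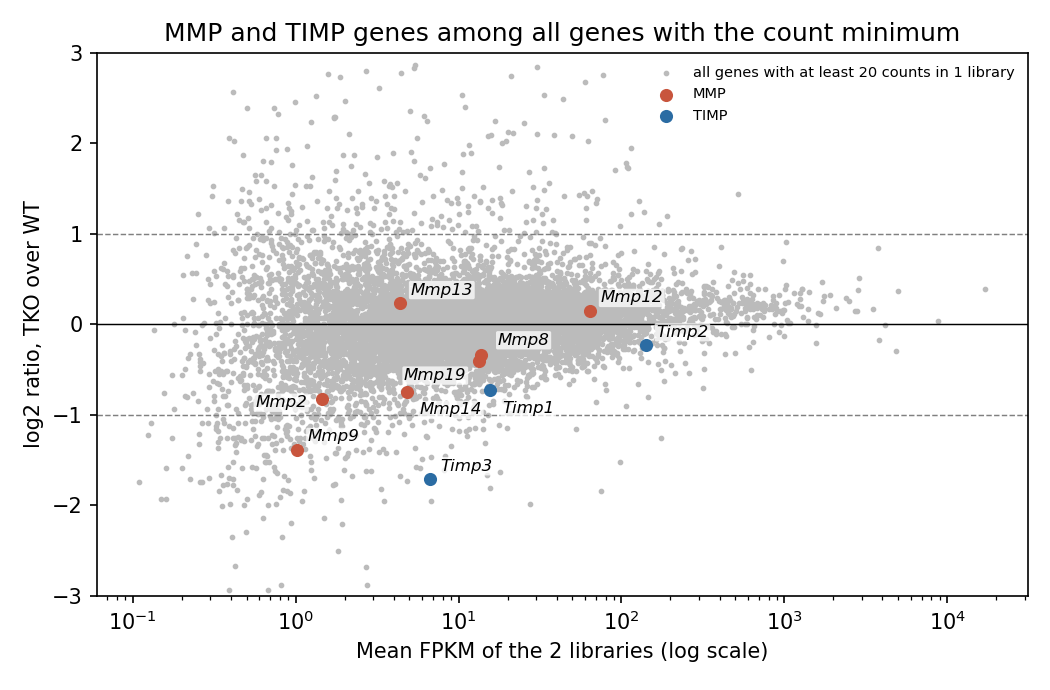
Log2 ratio, TKO over WT, against the mean FPKM of the libraries on a log axis for all 11525 genes with the count minimum (grey), with the enzymes in red and the inhibitors in blue; 39 genes lie beyond the plotted range of -3 to 3. Timp3 and Mmp9 lie below the dashed 2-fold line, and Mmp12 and Timp2 lie inside the cloud at high levels.

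Related genes were taken from lists by role. Of 16 other metalloproteinase genes, 12 were in the table and 2 had the count minimum, Mmp24 and Mmp27, and neither passed the size rule. Timp4 had no row, and Reck, a membrane-anchored inhibitor, had 20 and 23 counts. The ADAM proteases, membrane enzymes that shed surface proteins, had 1 of 10 measured members higher and 2 lower, with a median of -0.21. Adam12 was 3.25-fold lower (1.80 to 6.22) on 51 and 15 counts, Adam33 2.52-fold higher (1.70 to 3.80) on 37 and 89, and Adam8, highest in FPKM, stood at a log2 ratio of -0.32. After a correction for gene length (a smooth trend of the ratio subtracted), the median of this list was -0.033 and 1 member was lower. None of 4 measured ADAMTS proteases passed the rule, and their median was -0.044, or 0.15 after correction for gene length. Adamts10, highest in FPKM, stood at a log2 ratio of 0.024, Adamts13 at 0.19 and Adamts2, which trims procollagen, at -0.59.

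Among genes of the plasminogen system and of proenzyme activation, 1 of 9 measured members was higher and 1 lower, with a median of -0.25 (-0.15 after correction for gene length). Serpinb2, an inhibitor of plasminogen activators, was 2.78-fold lower (1.69 to 4.74) and St14, a membrane serine protease, 2.02-fold higher (1.47 to 2.81). St14 fell short of the 2-fold threshold with library totals (log2 ratio 0.98) and with DESeq2 size factors (0.997). Furin, which cleaves the Mmp14 proenzyme and was highest in FPKM, stood at -0.25 on the log2 scale. The list of cathepsins, serine elastases and their inhibitors had none of 7 measured past the rule and a median of 0.25. The measured genes were cathepsins and Cst3, an inhibitor of cathepsins, at a log2 ratio of 0.23. Ctsd had a log2 ratio of 0.37, Ctss 0.51 and Ctsl -0.51. Each of these lists was compared with the same background, 2.30% lower and 2.43% higher.

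The list of matrix proteins that these enzymes cut held many genes lower in TKO; like the others, it was chosen with earlier results known. Of 21 measured substrate genes, 14 passed the size rule downwards, against 2.30% of all genes, and 0 upwards, against 2.43%. All 21 log2 ratios were negative, against 5692 of all 11525 genes, and the median was -1.14. After correction for gene length 12 of 21 were lower, against 227 of all 11525 genes, and the median was -1.02. Col1a1 and Col3a1, chains of fibrillar collagens, were 3.96-fold and 3.88-fold lower, and Spp1, osteopontin, highest in FPKM, stood at a log2 ratio of -0.29. Surface receptors and inducers of the family had 3 of 13 lower and 1 higher, against the same 2.30% and 2.43% of all genes. Their median was -0.33 (-0.098 after correction for gene length). Ddr2, a collagen receptor, was 3.96-fold lower (2.18 to 7.69) and Tgfb2, a growth factor of the TGF-beta family, 3.58-fold lower (1.61 to 9.05). Both rest on few counts in TKO, 14 and 8. Bsg, a surface inducer of metalloproteinases, had a log2 ratio of 0.21. The 1 gene of the list called higher was Il1b, on 21 (WT) and 47 (TKO) counts, 2.34-fold higher in TKO (1.37 to 4.12).

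Markers of stromal cells, which also make several of these transcripts, included genes lower in TKO as well. Of 14 fibroblast and stroma markers, 11 had the count minimum, and all 11 ratios were negative, against 5692 of all 11525 genes. By the size rule 6 were lower, against 2.30% of all genes, and the median was -1.36. After correction for gene length 7 were lower and the median was -1.09. Their summed level was 134.55 FPKM in WT and 50.99 in TKO, and none was at 0 in either library. Of these 14 markers, 5 are also among the substrates. Timp3 (-1.71) and Mmp9 (-1.39) stood at or below the uncorrected marker median. Mmp2, Mmp14, Timp1, Mmp19, Mmp8 and Timp2 stood between it and no change. Mmp12 (0.15) and Mmp13 (0.24) stood above no change. The part of stromal cells in these ratios was not tested. In a bulk library, fewer cells of a type and less RNA per cell cannot be told apart.

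Markers of neutrophils, which store Mmp8 and Mmp9, were low. Of 10, 9 were in the table and 2 had the count minimum, with a summed level of 8.97 FPKM in WT and 13.02 in TKO; Elane was at 0 in WT, and Camp and Retnlg were at 0 in TKO. S100a8 had 9 and 21 counts, 2.44-fold higher in TKO (1.07 to 6.06), a call lost with a 99% interval or after correction for gene length, and Cxcr2 a log2 ratio of -0.078. Osteoclast markers, another source of Mmp9, had none of 4 measured past the rule, against 2.30% of all genes lower and 2.43% higher. Their median was -0.35 and their summed levels were 69.86 and 54.79 FPKM, with none at 0. Atp6v0d2 had a log2 ratio of -0.77, Acp5 0.70 and Nfatc1 -0.20. Of 7 dendritic cell markers, 5 had the count minimum, with a median of 1.37. Of these 5, 4 were higher, against 2.43% of all genes. The summed levels of all 7 were 17.82 and 42.92 FPKM, with none at 0. Dpp4, Flt3 and Cd24a were 2.88-fold, 2.83-fold and 2.45-fold higher. The call of Dpp4, on 8 and 22 counts, was lost with a 99% interval. The 9 macrophage markers had a median of -0.089, with Fcgr1 at 0.68, Cd68 at 0.39 and Adgre1 at -0.43. The part of these cells in the ratios of the 10 genes was not tested.

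**Figure D5:**
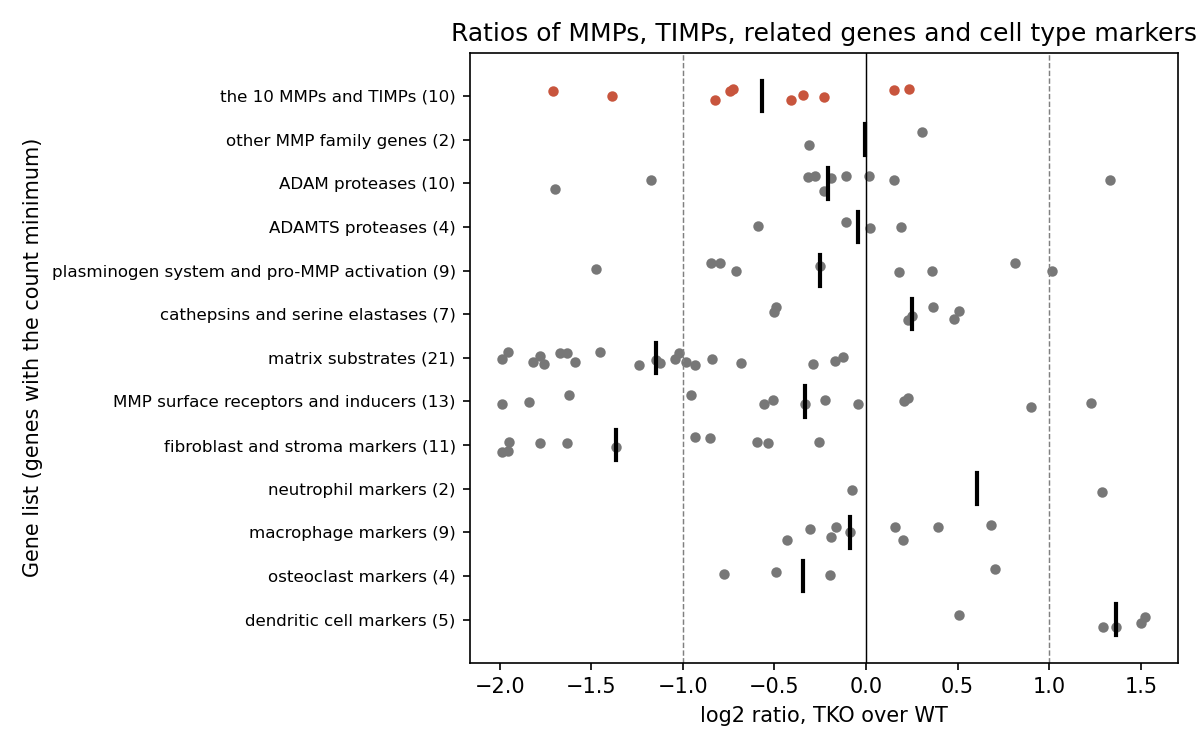
Log2 ratio, TKO over WT, of every gene with the count minimum in each list (points; number of genes in brackets) with the list median (black bar); vertical jitter has no meaning and Reck is not drawn. The list medians run from -1.36 (fibroblast and stroma markers) to 1.37 (dendritic cell markers). That of the 10 described genes is -0.57 and that of the macrophage markers -0.089.

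In the authors' deposited table, 9 of the 10 genes had an FDR of at most 0.05, Mmp13 being the exception, against 26.4% of all 16463 genes in either direction. That share also covers genes below the 20 counts that all 10 reached, so the 2 are not on the same footing. It was not computed for the 11525 genes with the count minimum. The authors' deposited table gives log2 ratios of FPKM of -1.75 for Timp3, -1.41 for Mmp9 and 0.11 for Mmp12. A test on the reads of 2 libraries compares those libraries and not the genotypes.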

How the data were processed

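Polyadenylated RNA of 1 WT and 1 TKO macrophage culture was sequenced. The submitters' processing notes list HISAT2 2.0.4, Bowtie2 2.2.5, RSEM 1.2.12 and mm10, without roles; no source used here states the annotation, strand setting or filters. The table deposited by the authors gives expected counts, that is, estimated reads, of which 21.3% were not whole in WT and 21.1% in TKO; they were rounded. FPKM values, per the file headers, are scaled for length and depth. The authors' log2 ratio equals that of their FPKM values. The authors' p-value and FDR come from an unstated test, and the FDR is handled as a score because 713 deposited values exceed 1. A length for every gene was deposited as well, and 0 columns of sample values were unmatched.

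Counts were scaled with TMM (edgeR 4.0.16, R 4.3.3). Ratios used no pseudocount, except that a count of 0 was set to 3 for the ratio. Intervals are exact conditional binomial (Clopper-Pearson) at 95%, and levels carry exact Poisson intervals. Both cover counting error only and treat reads as independent. PCR copies were not marked by molecular identifiers, so the intervals can be too narrow where reads are copies. As each genotype had 1 library, nothing was tested. The members, lists and rules were chosen with earlier results of these data known. Named were all 10 members, Mir17hg and Lyz2, and in each list the 2 largest absolute ratios and the most abundant gene. Adam10, Adam17, Adam19, Cst3, Il1b, Plau and Plaur were added after their values were seen. Gene positions and 3′ UTRs came from GENCODE M21 (GRCm38, the assembly behind mm10); sequences came from RefSeq GRCm38.p6 and GENCODE M21. Alternatives were library totals, DESeq2 1.42.0 size factors, log2 of FPKM plus 1, other count minimums, folds and intervals, and subtraction of a lowess fit (span 0.3) of the ratio on gene length.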

Additional observations from a re-analysis of the deposited data

How the results depend on the processing

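Timp3 remained lower by the size rule in every alternative except the 4-fold threshold. Mmp9 lost its call at 4-fold and with log2 of FPKM plus 1. With at least 100 counts, Mmp9 (52 and 19 counts) and Mmp2 (63 and 34) were not eligible, so neither could be called. Changing the count minimum also changed which of all genes were eligible. The setting with log2 of FPKM plus 1 took genes with at least 1 FPKM in 1 library. The number of the 10 genes lower in TKO was 2, and it was 1 with log2 of FPKM plus 1, 1 with at least 100 counts, 5 at 1.5-fold and 0 at 4-fold. None was higher under any setting run. Among all genes, 280 were higher and 265 lower; 122 were lower with log2 of FPKM plus 1, 164 higher and 95 lower with at least 100 counts, 591 and 636 at 1.5-fold, and 76 and 26 at 4-fold. Library totals, DESeq2 size factors, no count minimum, the 99% interval and removal of the length trend kept these counts within 1.5 times. No member's log2 ratio changed sign under the scalings, FPKM or removal of the length trend. With that trend removed Timp3 was at -1.56, Mmp9 at -1.36, Timp1 at -0.91 and Timp2 at -0.16. The fewest counts, 19 for Mmp9 and 34 for Mmp2 in TKO, limit those ratios most. No paired analysis was possible because each genotype had 1 library.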

Other observations

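Adam17 and Adam10, sheddases of cell surface proteins of which Adam17 is a known target of Timp3, were abundant and little different between the libraries. Adam17 had 80.41 FPKM in WT and 64.55 in TKO, a log2 ratio of -0.28 (-0.35 to -0.21). Adam10 had 122.16 and 104.30 FPKM, a log2 ratio of -0.19 (-0.24 to -0.14). Adam19, a less abundant relative, was the other ADAM gene lower by the size rule, with 151 and 64 counts, 2.25-fold lower in TKO (1.67 to 3.07), a log2 ratio that was -0.94 and short of 2-fold with the length trend removed.

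The urokinase genes, which generate plasmin at the cell surface, had log2 ratios of opposite sign, and neither passed the size rule. Plau, urokinase, had 21.95 FPKM in WT and 13.07 in TKO, a log2 ratio of -0.71 (-0.91 to -0.51). Its receptor Plaur had 14.93 and 25.56 FPKM, a log2 ratio of 0.81 (0.58 to 1.05).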
